A study of Nannochloropsis oceanica with 18 samples.

Results

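Nannochloropsis oceanica IMET1 is a unicellular, oil-rich marine alga, and the data described here follow its transcripts from the third to the sixth hour at very low CO2. The 2 libraries labelled VLC_6h were set against the 2 libraries labelled VLC_3h, and the genes described are the 8227 with a mean of at least 10 FPKM in either group, out of 9756 in the deposited tables. FPKM are fragment counts divided by the transcript's length and by the number of fragments mapped in the library. All cultures were grown at 5% CO2 (high CO2, HC) in continuous light and moved into fresh medium at 5% CO2. They were then given 0.01% CO2 (very low CO2, VLC) in the VLC groups or left at 5% CO2 in the HC groups, and poly(A) RNA was sampled at the start (0h) and after 3, 6, 12 and 24 h. The whole series holds 18 libraries, 2 in each of 9 groups. Besides VLC_6h and VLC_3h, the groups HC_6h and HC_3h, with 2 libraries each, are used to show what the same 3 h brought to cells kept at high CO2. Cells grew in 3 reactors per condition, and neither the labels nor the methods tie a library to its reactor. A VLC_6h and a VLC_3h library may thus come from 1 culture, although the test treats all libraries as separate, and its p-values measure only the spread between replicate libraries, which may be technical. The gene nearest above the minimum had a higher group mean of 10.003 FPKM and the nearest below it 9.997 FPKM, and 1529 genes lay below.

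Algae that face a shortage of CO2 can switch on a carbon-concentrating mechanism, in which bicarbonate transporters and carbonic anhydrases raise the CO2 level around Rubisco, the carboxylating enzyme of the Calvin cycle. A second, C4-like route can pass carbon through organic acids with the enzymes phosphoenolpyruvate carboxylase and carboxykinase, pyruvate, phosphate dikinase, malate dehydrogenase and malic enzyme. When CO2 is scarce Rubisco also fixes oxygen, and photorespiration recovers the phosphoglycolate that forms through glycolate, glyoxylate and glycine. Carbon fixation in turn feeds fatty acid synthesis and the carbon skeletons needed to assimilate nitrate, which makes these pathways the first place to look when carbon supply changes.

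Between 3 and 6 h at very low CO2, genes of several anabolic pathways were called lower far more often than higher, while genes of DNA replication, chromatin, the cell cycle and the cytoskeleton were called higher more often than lower, although most members of these lists were not called. Among lists with at least 15 tested genes, fatty acid synthesis, nitrogen assimilation, ribosome biogenesis, the Calvin cycle, glycolysis and tetrapyrrole synthesis had the largest shares called lower. Most of this change was shared with cells kept at HC. There 63.2% of the genes called higher in VLC were also called higher, and 66.8% of those called lower also lower. The median log2 ratio of mean FPKM was -1.06 in VLC and -1.09 at HC for fatty acid synthesis. It was -0.75 and -0.94 for the Calvin cycle and 0.54 and 0.39 for DNA replication and repair. A smaller set that included a carbonic anhydrase, a pair of pyruvate, phosphate dikinase genes and a myb-like transcription factor rose in VLC beyond what the same hours brought at HC. The test was limma's moderated test on log2(FPKM + 1) values, with 1 spread per gene estimated over all 9 groups. A gene was called higher or lower at a Benjamini-Hochberg adjusted p of 0.05 or less and a change of at least 2-fold. By this rule 647 genes (7.86% of the 8227 tested) were called higher in VLC_6h than in VLC_3h and 662 (8.05%) lower, 1309 or 15.9% in all. The median called-higher gene changed by 1.35 and the median called-lower gene by -1.28 on the log2(FPKM + 1) scale, 74 genes rose and 40 fell at least 4-fold, and 13 rose and 6 fell at least 8-fold. With no size rule 2474 were higher and 2910 lower, so many changes were below 2-fold. The VLC_6h and VLC_3h libraries did not overlap in 6930 tested genes (84.2%), so a lack of overlap was common and is stated below only as a description. For 5862 genes (71.3%) the 95% interval of the change lay within 2-fold in both directions. The median tested gene moved by -0.05 on the log2(FPKM + 1) scale.

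The 4 libraries were close within groups and far between them. Replicates had a median absolute log2(FPKM + 1) difference of 0.098 in VLC_6h and 0.106 in VLC_3h, and Pearson's r over genes was 0.991 within VLC_6h and 0.989 within VLC_3h, against 0.856 to 0.878 between the times. FPKM summed to 587457 and 584557 in the VLC_6h libraries and to 704699 and 694717 in the VLC_3h libraries, while the median gene of each library had 24.2 to 24.3 FPKM. Among genes averaging under 1 FPKM, replicate 2 over replicate 1 of VLC_6h gave the same ratio, rounded to 0.74, in 14 of 99 genes. Another ratio was shared by 13 of these genes, so 0.74 did not stand out. Between replicate 1 of VLC_6h and either VLC_3h library no ratio was shared by more than 3 of 100 genes. The depth of the VLC_3h libraries relative to the VLC_6h libraries was therefore not derived from the FPKM. By the study's read totals, every 6 and 24 h library has more uniquely aligned reads than any 0, 3 or 12 h library. FPKM also summed to 585343 and 584860 in the HC_6h libraries and to 720860 and 699081 in the HC_3h libraries. The step from 3 to 6 h thus coincides with a library difference that both arms share. The part of this difference in the changes was not tested. In all, 35 to 84 genes were listed at 0 in each of the 8 libraries of the 3 and 6 h groups. FPKM are shares of the RNA sequenced, so fewer transcripts of a gene and more RNA per cell cannot be told apart.

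**Figure D1:**
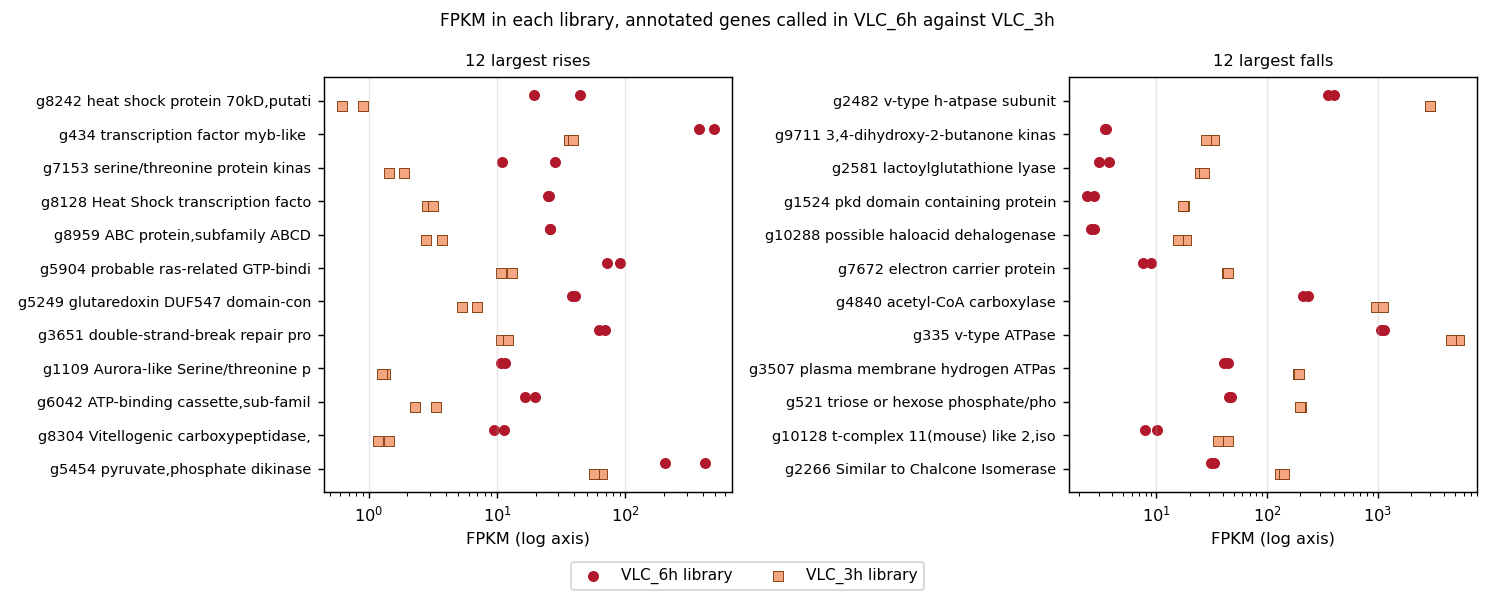
FPKM (log axis) in each VLC_6h library (circles) and each VLC_3h library (squares) for the 12 largest rises (left) and the 12 largest falls (right) among called genes whose annotation names a function. In every row the circles and squares are separated, and replicate 2 of VLC_6h lies well above replicate 1 for g8242, g7153 and g5454.

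The largest rise with a known function was that of an HSP70-type chaperone. This gene (g8242, scaffold00277, 73836 to 76500), annotated as heat shock protein 70kD, had 19.4 and 44.6 FPKM in VLC_6h and 0.621 and 0.903 FPKM in VLC_3h, a log2(FPKM + 1) change of 4.12 (SE 0.28, adjusted p = 2.9e-08). It was close to absent at 3 h, and the 2 libraries of 6 h differed from each other by more than 2-fold. At HC it stayed below 1 FPKM at both times. A myb-like DNA-binding factor (g434, scaffold00009, 319107 to 322291), of a family of transcription factors, had 374 and 489 FPKM in VLC_6h against 36.5 and 38.8 FPKM in VLC_3h, a change of 3.47 (SE 0.12, adjusted p = 2.7e-10) on the same scale. Its libraries did not overlap, and at 6 h it was among the abundant transcripts of the cell. A heat shock transcription factor (g8128) had 24.7 and 25.6 FPKM in VLC_6h and 2.84 and 3.15 FPKM in VLC_3h, and its log2(FPKM + 1) change of 2.71 was close to the 2.502 it showed at HC. The replicates of this factor lay close together at both times.

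Cell division genes stood high in the same ranking. The cohesin subunit rad21 (g3651), annotated as a double-strand-break repair protein, holds sister chromatids together after replication. It had 62.6 and 69.7 FPKM in VLC_6h against 10.7 and 12.1 FPKM in VLC_3h, a log2(FPKM + 1) change of 2.44. An Aurora-like kinase (g1109), of a family that controls chromosome segregation, had 10.7 and 11.4 FPKM in VLC_6h and 1.34 and 1.26 FPKM in VLC_3h, a change of 2.39. The times did not overlap for either gene. At HC rad21 rose by 2.37, and the kinase, which stayed under 10 FPKM and was not tested there, had 9.64 and 9.699 FPKM in HC_6h and 1.52 and 2.002 FPKM in HC_3h. A pair of ABC proteins of subfamily D, a group that in other eukaryotes carries acyl-CoA into peroxisomes, also rose. The protein g8959 had 25.7 and 26.02 FPKM in VLC_6h against 3.701 and 2.797 FPKM in VLC_3h (log2(FPKM + 1) change 2.67), and g6042 had 16.4 and 19.8 FPKM in VLC_6h against 2.31 and 3.33 FPKM in VLC_3h (change 2.33). A ras-related GTP-binding protein (g5904), a class of molecular switch, had 71.5 and 90.8 FPKM in VLC_6h and 13.1 and 10.8 FPKM in VLC_3h, while at HC it had 6.28 and 5.903 FPKM at 6 h and 5.29 and 8.22 FPKM at 3 h. Remaining rises of this size belonged to a glutaredoxin domain protein (g5249, change 2.51), a serine/threonine kinase (g7153, 2.81), a vitellogenic carboxypeptidase (g8304, 2.296) and pyruvate, phosphate dikinase (g5454, 2.24). Without replicate 2 of VLC_6h the carboxypeptidase had under 10 FPKM in both groups and was no longer called.

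The largest annotated falls included a pair of loci named as subunits of the V-type ATPase, the proton pump of vacuolar membranes. One (g2482, scaffold00077, 17 to 1011) had 359 and 399.5 FPKM in VLC_6h against 2984 and 2958 FPKM in VLC_3h, a log2(FPKM + 1) change of -2.97 (SE 0.13, adjusted p = 1.6e-09). The other (g335, scaffold00008, 26 to 631) had 1137 and 1073 FPKM in VLC_6h and 5438 and 4609 FPKM in VLC_3h, a change of -2.18 (SE 0.17, adjusted p = 1.1e-07). Both loci alternated, standing high at 0, 3 and 12 h and low at 6 and 24 h in both arms. In VLC g2482 averaged 5118 FPKM at 12 h and 472 FPKM at 24 h, and g335 averaged 8524 and 1160 FPKM. They fell by nearly the same amount at HC, and they stood apart from the other loci named as parts of this pump, for example subunit C (g4521, 87.5 and 85.7 FPKM in VLC_6h and 103 and 102 FPKM in VLC_3h) and the alpha subunit (g704, 277 and 287 FPKM in VLC_6h and 341 and 349 FPKM in VLC_3h), which were not called and were picked as examples after their values were seen. A plasma membrane proton ATPase (g3507), which energises uptake across the outer membrane, had 44.6 and 40.8 FPKM in VLC_6h against 190.4 and 194 FPKM in VLC_3h, a log2(FPKM + 1) change of -2.15. Acetyl-CoA carboxylase is the enzyme of the first committed step of fatty acid synthesis. A locus annotated as this enzyme (g4840, scaffold00141, 21 to 1021) had 234 and 213 FPKM in VLC_6h and 977 and 1117 FPKM in VLC_3h. It changed by -2.22 and, like the V-type ATPase loci, lies at the start of its scaffold. Whether it holds the whole gene was not tested. A hexose or triose phosphate translocator (g521), a carrier for sugar phosphates, had 45.8 and 47.1 FPKM in VLC_6h against 203 and 197 FPKM in VLC_3h, a change of -2.08. In each of these 3 genes the times were about 4-fold apart and the replicates lay close together. A 3,4-dihydroxy-2-butanone kinase (g9711) had 3.52 and 3.39 FPKM in VLC_6h against 33.4 and 28.3 FPKM in VLC_3h, a change of -2.83 that was the largest annotated fall but one. The rest of the 12 largest annotated falls were in a lactoylglutathione lyase (g2581, change -2.62), which detoxifies methylglyoxal, a PKD domain protein (g1524, -2.39), a possible haloacid dehalogenase-like hydrolase (g10288, -2.31), an electron carrier protein (g7672, -2.28), a t-complex 11-like gene (g10128, -2.05) and a chalcone isomerase homolog (g2266, -2.05).

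Among genes of the carbon-concentrating mechanism 1 carbonic anhydrase rose. Carbonic anhydrases interconvert CO2 and bicarbonate, and this gene (g6125, scaffold00214, 208828 to 211164) had 717 and 1529.7 FPKM in VLC_6h against 282 and 299.8 FPKM in VLC_3h. Its log2(FPKM + 1) change was 1.85 (SE 0.23, adjusted p = 1.0e-05), while at HC it fell, with 54.5 and 60.00 FPKM in HC_6h against 214 and 168 FPKM in HC_3h and a change of -1.71 (adjusted p = 2.3e-05). Thus both VLC_6h libraries were above both VLC_3h libraries, replicate 2 of VLC_6h held more than 2 times the level of replicate 1, and the arms moved apart by 3.56 (SE 0.33, adjusted p = 2.7e-05). Of the 6 tested members of the list of carbonic anhydrases and SLC4-type bicarbonate transporters it was the only gene called. The intervals of the other 5 lay within 2-fold, among them the carbonic anhydrase g2209 (-0.32 to 0.09 on the log2(FPKM + 1) scale). The deposited annotation calls g2209 a putative gamma-type enzyme, while the paper names it as a beta-type enzyme. The SLC4-type transporter g19, annotated as a boron transporter, had 44.9 and 66.8 FPKM in VLC_6h and 43.8 and 43.3 FPKM in VLC_3h. Among 7 tested candidate bicarbonate transporters of other families, 3 were lower and none higher. These were an ABC ATP-binding protein (g6647, 14.2 and 12.4 FPKM in VLC_6h and 35.1 and 34.7 FPKM in VLC_3h), an ABC subfamily G protein (g6756, log2(FPKM + 1) change -1.17) and g545, annotated as nitrite transporter NAR1 (57.1 and 54.6 FPKM in VLC_6h and 121 and 128 FPKM in VLC_3h). The second NAR1-like gene, g6826, had 59.6 and 65.2 FPKM in VLC_6h against 33.9 and 39.4 FPKM in VLC_3h, a change of 0.75 that stayed under 2-fold.

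Of the 10 C4-like genes, 2 rose and none fell, and both were annotated as pyruvate, phosphate dikinase, which regenerates phosphoenolpyruvate from pyruvate. They are neighbours on 1 scaffold (g5453, scaffold00182, 273637 to 275628, and g5454, scaffold00182, 276584 to 278838). The first had 533 and 1001 FPKM in VLC_6h against 163 and 173 FPKM in VLC_3h, a log2(FPKM + 1) change of 2.11 (SE 0.22, adjusted p = 1.8e-06). The second had 204 and 417 FPKM in VLC_6h against 65.4 and 56.9 FPKM in VLC_3h, a change of 2.24 (SE 0.22, adjusted p = 8.9e-07). In both genes even the lower VLC_6h library, replicate 1, held at least 3 times the level of either VLC_3h library. Multiply mapped reads were excluded before the values were made, so the split between similar copies is uncertain. A further copy (g3407) had 15.1 and 19.4 FPKM in VLC_6h and 13.5 and 14.4 FPKM in VLC_3h (change 0.28, adjusted p = 0.1). It reached 280.3 FPKM on average at 12 h in VLC. The neighbouring pair already averaged 767 FPKM (g5453) and 310 FPKM (g5454) at 6 h in VLC. At 12 h in VLC they averaged 669 and 450 FPKM, so g5454 too stood higher at 12 h than at 6 h. Phosphoenolpyruvate carboxykinase (g6884), which makes phosphoenolpyruvate from oxaloacetate, was lower, with 223 and 245 FPKM in VLC_6h against 378 and 367 FPKM in VLC_3h and a change of -0.67 (adjusted p = 0.00042), but did not reach 2-fold. Phosphoenolpyruvate carboxylase (g5140) had 111 and 116 FPKM in VLC_6h against 144 and 132 FPKM in VLC_3h (change -0.28), and the malate dehydrogenases and malic enzymes had intervals within 2-fold.

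None of the 10 tested genes of photorespiration passed the 2-fold rule in VLC, but 3 consecutive enzymes of its glycolate branch differed between the arms. Phosphoglycolate phosphatase (g10166), the entry step, had 172 and 242 FPKM in VLC_6h against 135 and 129 FPKM in VLC_3h, while at HC it had 50.9 and 49.4 FPKM at 6 h against 100.2 and 109 FPKM at 3 h. Glycolate oxidase (g640) had 168 and 251 FPKM in VLC_6h against 150.4 and 145 FPKM in VLC_3h, and 52.2 and 50.1 FPKM in HC_6h against 113 and 134 FPKM in HC_3h. Glutamate:glyoxylate aminotransferase (g3637) had 124 and 202 FPKM in VLC_6h against 90.3 and 84.1 FPKM in VLC_3h, and 29.1 and 30.4 FPKM in HC_6h against 75.00 and 67.1 FPKM in HC_3h. All 3 fell at HC by at least 2-fold, and none of their VLC libraries at 6 h was below the VLC libraries at 3 h. The difference of the log2(FPKM + 1) changes, VLC minus HC, was 1.67 for the phosphatase (SE 0.16, adjusted p = 3.7e-05), 1.73 for the oxidase (SE 0.22, adjusted p = 0.00054) and 2.08 for the aminotransferase (SE 0.22, adjusted p = 9.5e-05). Without replicate 1 of VLC_6h the aminotransferase passed the 2-fold rule in VLC as well (change 1.204). The intervals of the 4 tested genes listed for glycine decarboxylase, the mitochondrial step that releases CO2 and ammonia, lay within 2-fold. They are the H-protein (g260), the T-protein (g176), a gene annotated as glycine dehydrogenase (g1059) and g9801, which the deposited tables annotate as an isoprenylcysteine carboxyl methyltransferase. The T-protein had 142 and 192 FPKM in VLC_6h against 112 and 123 FPKM in VLC_3h and g1059 266 and 309.5 FPKM in VLC_6h against 319.8 and 328 FPKM in VLC_3h. In the tetrahydrofolate cycle, which carries the one-carbon units that glycine cleavage yields, the dehydrogenase/cyclohydrolase (g8540) was the gene of 5 called. It had 216 and 337 FPKM in VLC_6h against 114 and 124 FPKM in VLC_3h, a change of 1.17 (SE 0.15, adjusted p = 1.1e-05) that fell under 2-fold without replicate 2 of VLC_6h (0.85). Formate-tetrahydrofolate ligase (g5846) had 90.4 and 159 FPKM in VLC_6h against 118 and 112 FPKM in VLC_3h (change 0.06), while it fell at HC (change -1.37).

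**Figure D2:**
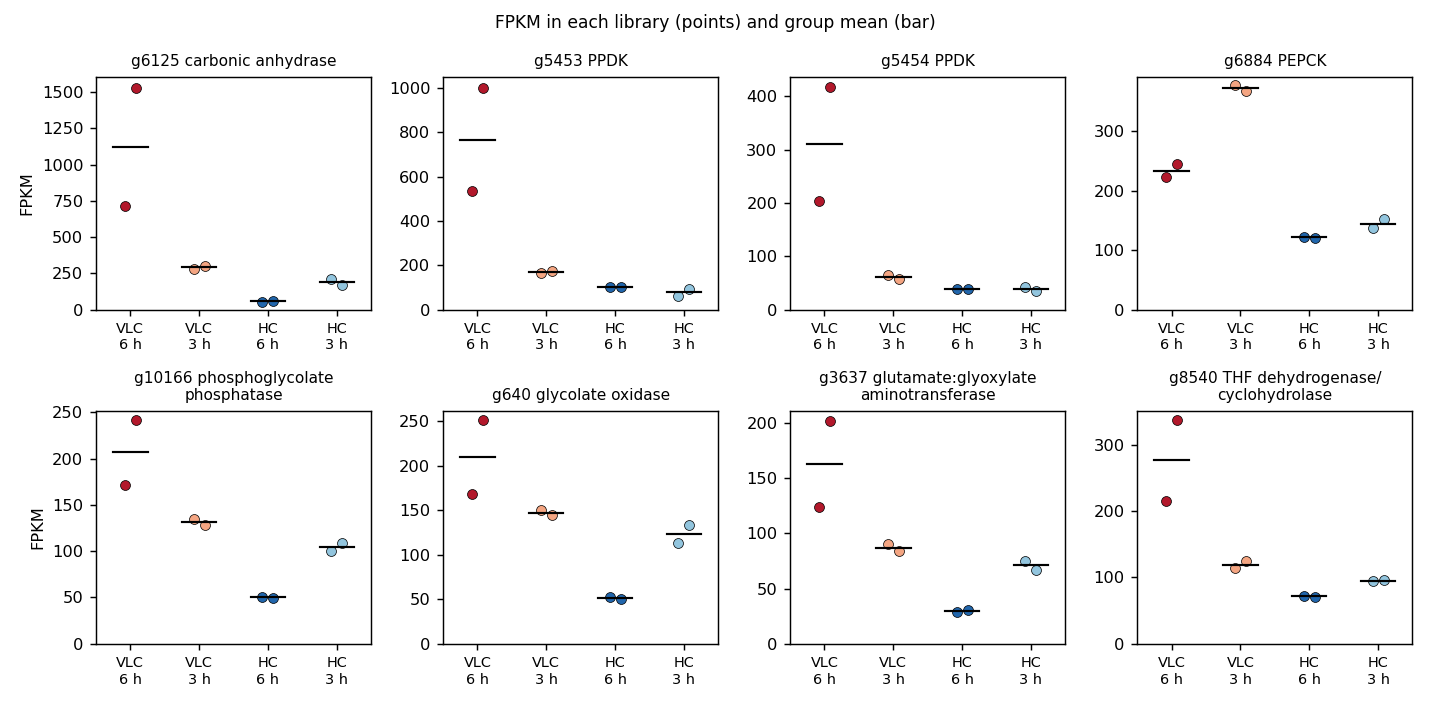
FPKM in each library (points) and the group mean (bars) for 8 genes of the C4-like, carbonic anhydrase, photorespiration and folate lists in VLC_6h, VLC_3h, HC_6h and HC_3h. In every panel but that of g6884 both VLC_6h points lie above the VLC_3h points, and replicate 2 (the right point) is the higher of the 2 VLC_6h libraries.

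In the ornithine urea cycle, which recovers ammonia and CO2 in carbamoyl phosphate, argininosuccinate synthetase (g9579) was the enzyme that fell. It had 134 and 122 FPKM in VLC_6h against 359 and 353 FPKM in VLC_3h, a log2(FPKM + 1) change of -1.47 (adjusted p = 1.9e-08), and its change at HC was -1.33. Ornithine transcarbamoylase (g1074) and argininosuccinate lyase (g281) changed by -0.83 and -0.901 on the same scale, both short of 2-fold, though the lyase passed it without replicate 1 of VLC_6h (-1.06). The carbamoyl-phosphate synthase g1666 had 171 and 177 FPKM in VLC_6h and 199 and 213 FPKM in VLC_3h. The gene called higher in this list, g1246 (change 1.17), is annotated as a myosin in the deposited tables. Among 16 organelle transporters, the sugar phosphate translocators g521 and g6303 (10.3 and 9.33 FPKM in VLC_6h, 26.4 and 31.6 FPKM in VLC_3h) and the sodium/proton exchanger g10029 (9.998 and 9.02 FPKM in VLC_6h, 36.5 and 35.8 FPKM in VLC_3h) fell. A bile acid:sodium symporter homolog (g9518) rose, with 18.1 and 19.2 FPKM in VLC_6h against 7.37 and 8.99 FPKM in VLC_3h. Its change of 1.102 lay near the limit and was 0.97 without replicate 1 of VLC_3h. The plastidic triose phosphate translocator g1018 was higher, with 480.2 and 543 FPKM in VLC_6h and 327 and 325 FPKM in VLC_3h (change 0.65, adjusted p = 0.00064), but did not reach 2-fold.

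Genes of the Calvin cycle and glycolysis were called lower far more often than higher. Of 27 tested Calvin cycle genes 11 were called lower and none higher, with a median log2 ratio of mean FPKM of -0.75 beside -0.06 over all tested genes. The same list had 13 of 27 lower and 1 higher at HC, with a median of -0.94. Phosphoribulokinase (g3073), which makes the CO2 acceptor of the cycle, had 289.6 and 256 FPKM in VLC_6h against 960.4 and 821 FPKM in VLC_3h, a log2(FPKM + 1) change of -1.702. Ribulose-phosphate epimerase (g4929), which feeds it, had 73.5 and 79.8 FPKM in VLC_6h against 294 and 288 FPKM in VLC_3h, a change of -1.91. The times did not overlap in either gene, and every VLC_3h library held more than 2 times the level of any VLC_6h library. Of 28 genes of glycolysis and pyruvate metabolism 10 fell and 1 rose (median log2 ratio -0.61), while 9 of 27 fell and 1 rose at HC (-0.60). Pyruvate kinase (g9175), the last step of glycolysis, had 46.2 and 40.4 FPKM in VLC_6h against 172 and 155 FPKM in VLC_3h, and enolase (g1329), the step before it, had 127 and 107 FPKM in VLC_6h against 383 and 351 FPKM in VLC_3h. The gene that rose was annotated as pyruvate carboxylase subunit B (g4189), which makes oxaloacetate from pyruvate. It had 63.1 and 63.04 FPKM in VLC_6h against 14.2 and 15.1 FPKM in VLC_3h, a log2(FPKM + 1) change of 2.04 (SE 0.105, adjusted p = 3.8e-09). The tricarboxylic acid cycle showed no call, and all 16 tested members had intervals within 2-fold, from aconitase (g743, change -0.62) to dihydrolipoamide succinyltransferase (g7331, 0.58). In the respiratory chain 2 of 38 genes fell (5.26%, under the 8.05% of all tested genes). They were the alternative oxidase g363, which bypasses the later proton-pumping complexes (112 and 93.1 FPKM in VLC_6h, 321 and 303 FPKM in VLC_3h), and an NADH dehydrogenase (g10125, change -1.03). The call of g10125 sat at the limit and was lost relative to the median gene, under quantile normalization and without replicate 2 of VLC_6h.

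Fatty acid synthesis had the largest share of members called lower among the lists with at least 15 tested genes, 8 of 15 with none higher and a median log2 ratio of -1.06. The HC cells had 9 of 15 lower and 1 higher, with a median of -1.09. Beside acetyl-CoA carboxylase, malonyl-CoA:ACP transacylase (g6828), which loads the growing chain's carrier, had 74.4 and 68.2 FPKM in VLC_6h against 214 and 225 FPKM in VLC_3h. An acyl-ACP synthase of the ketoacyl type (g1093), which adds the acyl units, had 66.3 and 51.4 FPKM in VLC_6h against 182 and 174 FPKM in VLC_3h. Both fell by about the same amount, with log2(FPKM + 1) changes of -1.61 and -1.59. Desaturases and elongases followed, with 5 of 20 lower and 1 higher. Stearoyl-CoA desaturase (g2635), which puts the first double bond into the chain, had 215 and 190.1 FPKM in VLC_6h against 607 and 619.6 FPKM in VLC_3h, and its change of -1.595 differed from that at HC by -0.93, short of 2-fold. The elongase g6504 rose, with 138 and 130.1 FPKM in VLC_6h against 58.4 and 63.1 FPKM in VLC_3h. Acyl glycerol assembly was split, with 3 of 31 higher and 3 lower. Type 2 diacylglycerol acyltransferases, which make the storage oil triacylglycerol, moved in opposite directions. The gene g10167 had 132 and 147 FPKM in VLC_6h against 42.1 and 45.9 FPKM in VLC_3h (log2(FPKM + 1) change 1.64), whereas g7358 had 10.7 and 11.04 FPKM in VLC_6h against 40.7 and 43.2 FPKM in VLC_3h (change -1.86). The first also differed between arms, by 1.25 (SE 0.16, adjusted p = 0.0004), and its locus follows that of phosphoglycolate phosphatase (g10166) on the same scaffold. Sulfolipid synthase (g6664), whose product is a plastid membrane lipid, had 62.6 and 61.7 FPKM in VLC_6h against 19.9 and 19.1 FPKM in VLC_3h. Long-chain acyl-CoA synthetases, which activate free fatty acids, also differed in direction, with g5840 at 149 and 140.3 FPKM in VLC_6h and 66.8 and 49.9 FPKM in VLC_3h, and g6018 at 43.6 and 39.03 FPKM in VLC_6h and 113 and 92.7 FPKM in VLC_3h.

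Nitrogen uptake and assimilation had 11 of 23 members lower, none higher and a median log2 ratio of -1.0. The high-affinity nitrate transporter (g7989) had 546 and 389.9 FPKM in VLC_6h against 1815 and 1798 FPKM in VLC_3h, a log2(FPKM + 1) change of -1.97 (SE 0.14, adjusted p = 4.7e-08). Nitrate reductase (g7988), encoded next to it (scaffold00271, 263203 to 267456 and scaffold00271, 268111 to 270893), had 249.8 and 164 FPKM in VLC_6h against 786 and 675 FPKM in VLC_3h, a change of -1.84 (SE 0.14, adjusted p = 1.1e-07). Ferredoxin-nitrite reductase (g3438), which takes nitrite to ammonium in the plastid, had 486 and 384 FPKM in VLC_6h against 1296 and 1242 FPKM in VLC_3h, a change of -1.55 (SE 0.09, adjusted p = 1.4e-08). Uptake and both reductions thus fell together, and replicate 2 was the lower VLC_6h library in all 3 genes. Their changes at HC were -1.25, -1.05 and -0.84, and the differences between arms (-0.72, -0.79 and -0.71) were under 2-fold and not called. Sulfur assimilation and the methionine cycle had 3 of 30 members lower (10%, near the 8.05% of all tested genes) and 1 higher. ATP sulfurylase (g7996), the activating step, had 62.9 and 62.4 FPKM in VLC_6h against 187 and 175 FPKM in VLC_3h. The sulfate transporter g3713 rose, with 62.8 and 65.5 FPKM in VLC_6h against 19.4 and 17.5 FPKM in VLC_3h, and a transporter of the same family, g3195, fell, with 12.4 and 8.02 FPKM in VLC_6h against 25.7 and 23.3 FPKM in VLC_3h. The fall of g3195 dropped under 2-fold without replicate 2 of VLC_6h (-0.93).

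Pigment synthesis genes were called lower far more often than higher. In tetrapyrrole synthesis, the route to chlorophyll and haem, 8 of 23 genes were lower and none higher (median log2 ratio -0.79). Magnesium chelatase subunit D (g2511), at the branch point to chlorophyll, had 120.1 and 115 FPKM in VLC_6h against 477 and 417 FPKM in VLC_3h, a log2(FPKM + 1) change of -1.91. Upstream of it, uroporphyrinogen decarboxylase (g865) changed by -1.48 and hydroxymethylbilane synthase (g725) by -1.35 on that scale. In carotenoid, isoprenoid and sterol synthesis 6 of 31 fell and 1 rose. Phytoene desaturase (g2675), an early carotenoid enzyme, had 51.3 and 52.2 FPKM in VLC_6h against 121 and 118 FPKM in VLC_3h, and geranylgeranyl diphosphate synthase (g8423), which makes its precursor, had 33.05 and 32.3 FPKM in VLC_6h against 89.1 and 86.5 FPKM in VLC_3h. A sterol reductase (g6702) rose instead, with 154 and 146 FPKM in VLC_6h against 38.4 and 42.6 FPKM in VLC_3h. The photosystem and antenna list had 2 of 27 lower (7.41%, near the 8.05% of all tested genes) and none higher. They were the light-harvesting protein g6857 (63.4 and 59.6 FPKM in VLC_6h, 204 and 185 FPKM in VLC_3h) and PsbP of photosystem II (g1840, change -1.01, lost under 4 of 9 alternatives). The median log2 ratio of this list, -0.33, became 0.24 under quantile normalization.

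**Figure D3:**
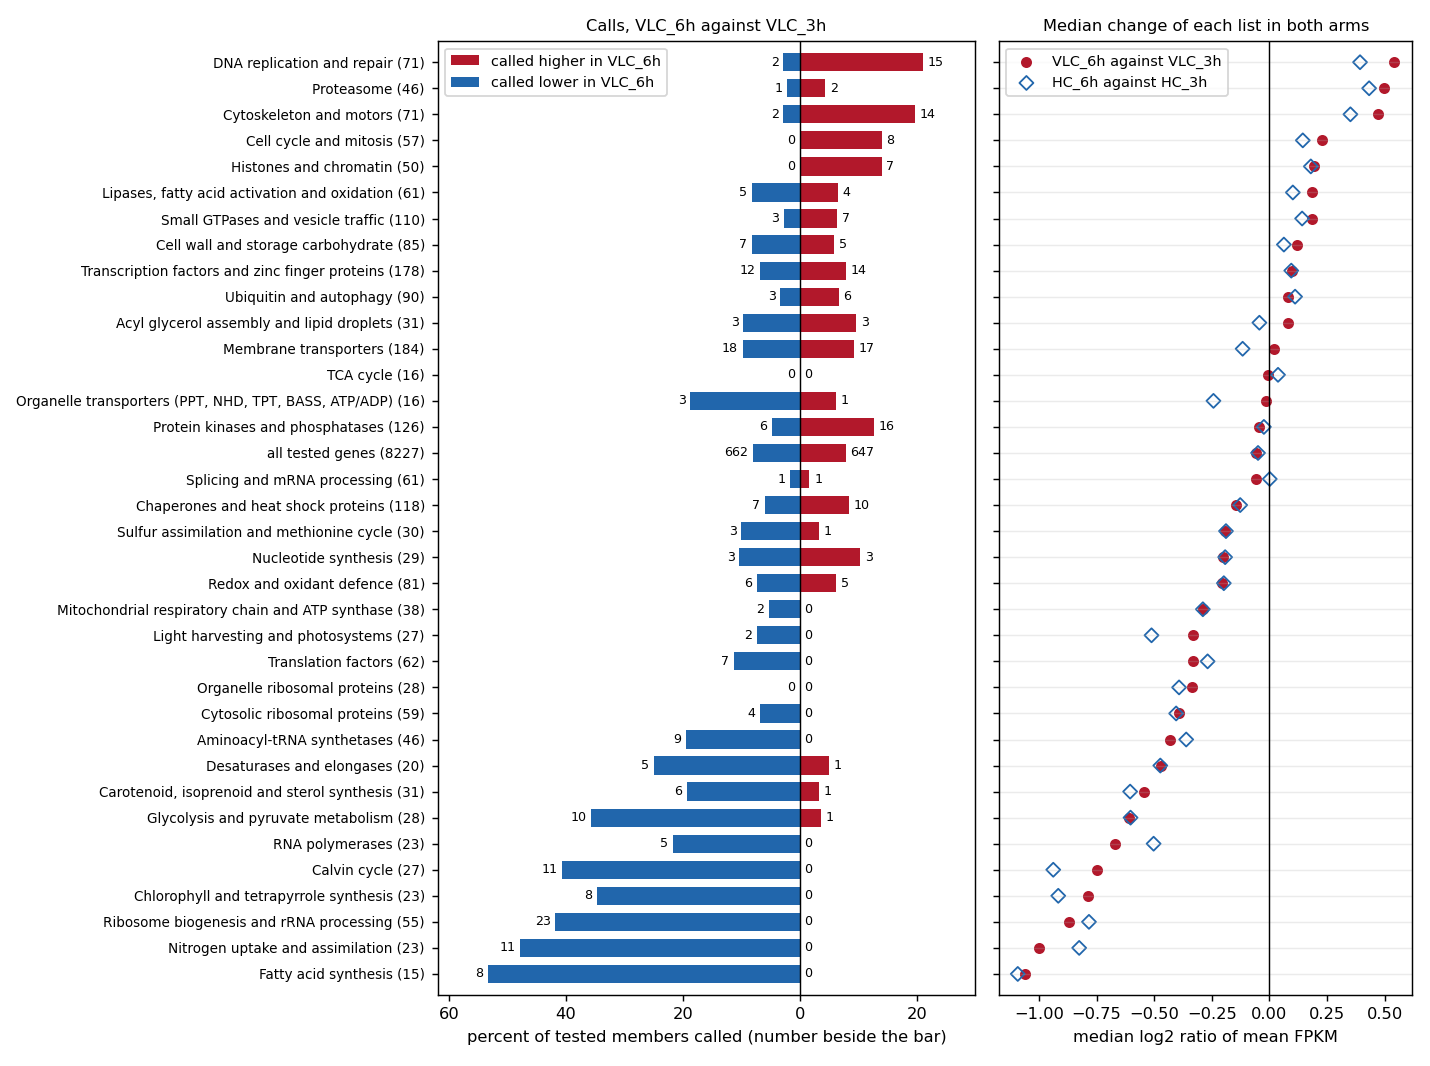
Left, percent of the tested members of each list called lower (blue, to the left) or higher (red, to the right) in VLC_6h against VLC_3h, with the number of genes beside each bar and the number tested in parentheses. Right, median log2 ratio of mean FPKM of each list in VLC (filled circles) and in HC (open diamonds) for the lists with at least 15 tested genes, with all tested genes as 1 row (647 higher, 662 lower). Under quantile normalization the medians of the cytosolic ribosomal protein and light-harvesting lists change sign (to 0.09 and 0.24).

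Genes for assembling ribosomes were called lower in a larger share than those for the ribosome itself. Of 55 tested genes of ribosome biogenesis and rRNA processing 23 were lower and none higher, with a median log2 ratio of -0.87. The HC cells had 16 of 56 lower and none higher, with a median of -0.78. The U3 snoRNA-associated protein g4358, part of the complex that processes the small-subunit rRNA, had 13.8 and 13.7 FPKM in VLC_6h against 46.8 and 41.9 FPKM in VLC_3h. WDR12 (g5267), needed for the large subunit, had 14.4 and 12.7 FPKM in VLC_6h against 44.6 and 41.5 FPKM in VLC_3h. Replicates of both lay close together and the times did not overlap. RNA polymerase genes had 5 of 23 lower and none higher, among them the polymerase I subunits RPA2 (g6241, log2(FPKM + 1) change -1.22) and Rpc19 (g8510, -1.26), which transcribe rRNA, and a sigma-70 factor (g4050, -1.58), a type of protein that directs the plastid polymerase. Aminoacyl-tRNA synthetases had 9 of 46 lower and none higher, for example the glycyl enzyme (g6713), with 26.1 and 25.8 FPKM in VLC_6h against 70.1 and 75.2 FPKM in VLC_3h. Among translation factors 7 of 62 fell (11.3%, near the 8.05% of all tested genes) and none rose. The plastid elongation factor EF-G (g162) had 193 and 187 FPKM in VLC_6h against 579 and 536 FPKM in VLC_3h, EF-Ts (g6305) had 40.9 and 36.2 FPKM in VLC_6h against 154 and 109.6 FPKM in VLC_3h, and EF-Tu (g1008) changed by -1.42 on the log2(FPKM + 1) scale. Cytosolic ribosomal proteins had 4 of 59 lower (6.78%, under the 8.05% of all tested genes) and none higher. Their median log2 ratio was -0.39 as deposited and 0.09 under quantile normalization, so no direction is given for that list. The ribosomal protein L23a (g4087) had 1733 and 1639 FPKM in VLC_6h against 5491 and 5562 FPKM in VLC_3h. Organelle ribosomal proteins had no call among 28, with changes from -0.91 (L11, g6420) to 0.53 (plastid S22, g6228), and L11 passed the rule without replicate 1 of VLC_3h (-1.08).

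Genes for copying and packaging DNA were called higher more often than lower, though most were not called. Of 71 tested genes of DNA replication and repair 15 were higher, 2 lower and 54 not called, with a median log2 ratio of 0.54. The HC cells had 17 of 73 higher and 1 lower, with a median of 0.39. Both subunits of ribonucleotide reductase, which makes the deoxynucleotides for replication, rose. The small chain (g1069) had 207 and 201 FPKM in VLC_6h against 53.2 and 49.5 FPKM in VLC_3h, a log2(FPKM + 1) change of 1.97 (SE 0.06, adjusted p = 1.4e-10). The large chain (g7568) had 277 and 278 FPKM in VLC_6h against 118 and 118 FPKM in VLC_3h, a change of 1.23 (SE 0.07, adjusted p = 1.2e-08). The nucleotide synthesis list as a whole was split, 3 of 29 higher and 3 lower, and the purine enzyme phosphoribosylformylglycinamidine synthase (g740) and a glutamine-hydrolysing carbamoyl-phosphate synthase (g9291) fell, with changes of -1.43 and -1.21. A DNA polymerase-related gene (g8449) had 28.6 and 35.5 FPKM in VLC_6h against 10.7 and 10.2 FPKM in VLC_3h, and topoisomerase VI subunit B (g4608), which relieves coiling of DNA, had 18.99 and 21.3 FPKM in VLC_6h against 6.58 and 6.06 FPKM in VLC_3h. Histones and chromatin genes had 7 of 50 higher and none lower. Histone H2A (g7083), a core histone, had 2159 and 2237 FPKM in VLC_6h against 731 and 777 FPKM in VLC_3h, and a histone H1-like linker protein (g10116) had 139 and 119 FPKM in VLC_6h against 35.04 and 39.5 FPKM in VLC_3h. The protein that binds the hairpin of histone mRNAs (g1868), which those mRNAs need for their processing, changed by 1.69.

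Mitotic and cytoskeletal genes were also called higher more often than lower. The cell cycle list had 8 of 57 higher and none lower. A NIMA-related kinase (g3751), of a family named for its role in entry into mitosis, had 47.97 and 44.6 FPKM in VLC_6h against 9.29 and 11.4 FPKM in VLC_3h, and a spindle assembly protein (g883), known in animals for centriole duplication, had 66.8 and 61.6 FPKM in VLC_6h against 20.9 and 18.1 FPKM in VLC_3h. Of 71 tested genes of the cytoskeleton and motors 14 were higher and 2 lower (median log2 ratio 0.47), such as a kinesin (g3513) with 34.3 and 34.1 FPKM in VLC_6h and 10.7 and 11.3 FPKM in VLC_3h, and a roadblock-type dynein light chain (g7169) with 13.4 and 16.96 FPKM in VLC_6h and 3.07 and 5.54 FPKM in VLC_3h. Genes named as flagellar associated went both ways, g3670 higher with a log2(FPKM + 1) change of 1.53 and g4441 and g3779 lower with -1.34 and -1.07, the last of which was -0.98 without replicate 2 of VLC_3h. The proteasome degrades ubiquitin-tagged proteins. The list's median log2 ratio was 0.50, and 37 of 46 members had a ratio above 0, beside 3837 of the 8227 tested genes. Only 2 were called higher (4.35%) and 1 lower (2.17%), below the 7.86% and 8.05% of all tested genes. Regulatory subunit 3 (g5784) had 226 and 226 FPKM in VLC_6h against 100.9 and 94.2 FPKM in VLC_3h, and S10B (g4036) had 111 and 109 FPKM in VLC_6h against 51.5 and 50.5 FPKM in VLC_3h.

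**Figure D4:**
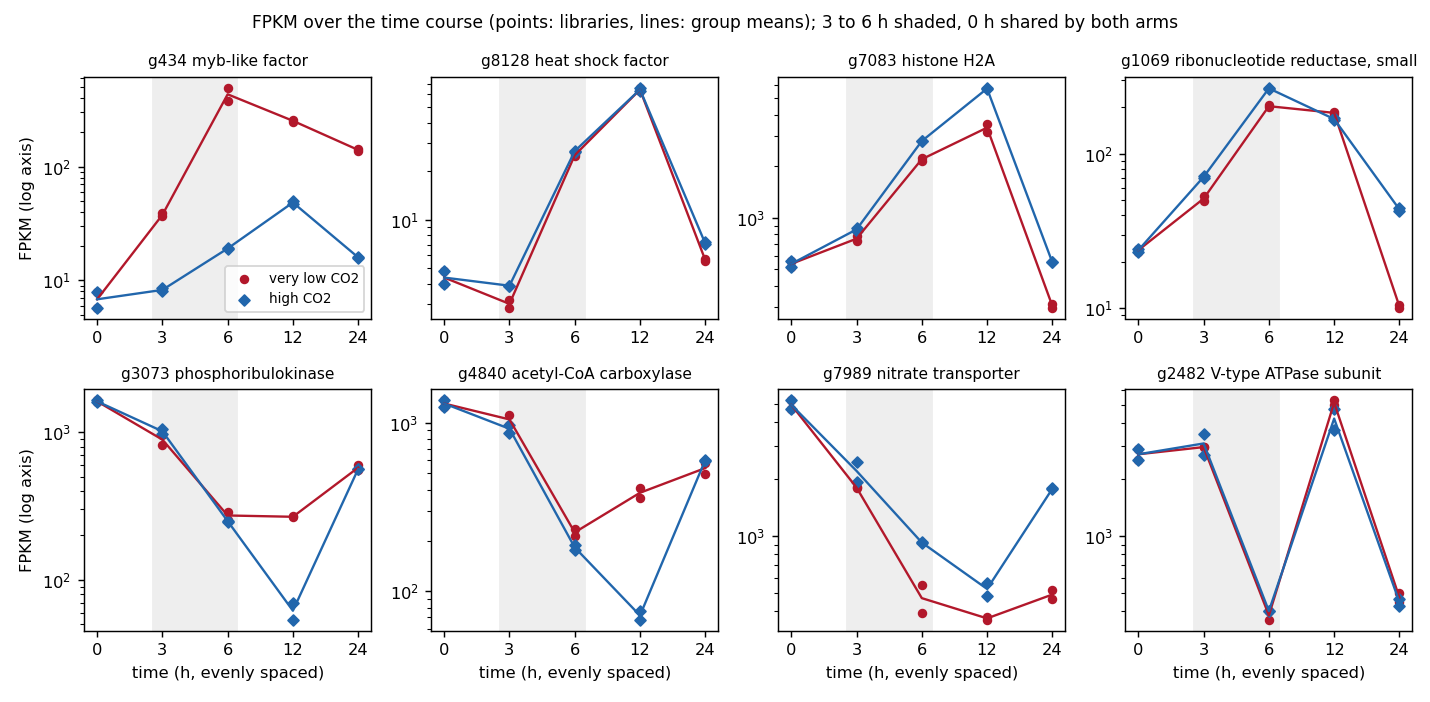
FPKM (log axis) of 8 genes over 0, 3, 6, 12 and 24 h in VLC (red circles) and HC (blue diamonds), with library values as points, group means as lines and the 3 to 6 h step shaded. The myb-like factor g434 was higher in VLC than at HC from 3 h on. Between 3 and 6 h it rose in both arms, as did the heat shock factor, histone H2A and ribonucleotide reductase. Phosphoribulokinase, acetyl-CoA carboxylase and the V-type ATPase subunit fell in both arms between these times.

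Regulators and transporters held calls in both directions, mostly at shares near the 7.86% higher and 8.05% lower of all tested genes. Of 178 transcription factors and zinc finger proteins 14 were higher (7.87%) and 12 lower (6.74%). A WRKY-type factor (g2220) had 21.6 and 19.7 FPKM in VLC_6h against 4.42 and 4.82 FPKM in VLC_3h, while aureochrome 4 (g1656), of a family of blue-light sensing factors of stramenopile algae, had 22.4 and 22.6 FPKM in VLC_6h against 83.5 and 80.1 FPKM in VLC_3h. The NAC-type factor g2448 and the MYB-related factor g2016 both fell, each by 1.64 on the log2(FPKM + 1) scale. Protein kinases and phosphatases had 16 of 126 higher (12.7%) and 6 lower (4.76%). An AMP-activated kinase gamma chain (g8295), the energy-sensing subunit, had 72.6 and 78.1 FPKM in VLC_6h against 14.8 and 19.6 FPKM in VLC_3h, with a log2(FPKM + 1) change of 2.08 (SE 0.496), and a mitogen-activated kinase (g4302) had 13.4 and 15.1 FPKM in VLC_6h against 36.9 and 37.4 FPKM in VLC_3h. Chaperones were split as well, with 10 of 118 higher and 7 lower. Calreticulin (g5123), a folding factor of the endoplasmic reticulum, had 744 and 688 FPKM in VLC_6h against 244 and 217 FPKM in VLC_3h, and an abundant HSP70 (g3145) had 488 and 428 FPKM in VLC_6h against 1498 and 1426 FPKM in VLC_3h. Membrane transporters had 17 of 184 higher (9.24%) and 18 lower (9.78%), and redox genes 5 of 81 higher and 6 lower. Among the redox genes peroxiredoxin Q (g6580), a plastid peroxide scavenger in plants, had 34.1 and 28.6 FPKM in VLC_6h against 112 and 123 FPKM in VLC_3h. A glutathione S-transferase of the omega type (g9049) had 13.5 and 23.5 FPKM in VLC_6h against 4.03 and 5.71 FPKM in VLC_3h. Cell wall and storage carbohydrate genes, 5 of 85 higher and 7 lower, included cellulose synthase (g5048), with 39.6 and 43.1 FPKM in VLC_6h against 119 and 111 FPKM in VLC_3h, and cellulase 1 (g131), with 37.8 and 40.04 FPKM in VLC_6h against 134 and 126 FPKM in VLC_3h. Both genes were taken from the called falls of this list. Its median log2 ratio was 0.12, and 48 of 85 members had a ratio above 0 and 37 below. The remaining lists had shares of calls near or below those over all tested genes, 6 higher and 3 lower of 90 genes of ubiquitin and autophagy, 7 and 3 of 110 small GTPases and vesicle traffic genes, 4 and 5 of 61 lipases and fatty acid activation or oxidation genes, 1 and 1 of 61 splicing genes, and none of 2 basal carbon-concentrating genes. The actin reference gene (g3056) had 41.9 and 41.2 FPKM in VLC_6h against 35.2 and 42.8 FPKM in VLC_3h.

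Genes without a named function were a larger part of the called-higher genes than of all tested genes, but not of the called-lower genes. Of the 647 genes called higher 287 (44.4%) had an annotation that names a function and of the 662 called lower 359 (54.2%), beside 4431 (53.9%) of all tested genes. The largest rises overall were of such genes. The conserved protein g4254 (scaffold00127, 283381 to 285705) had 132 and 289.8 FPKM in VLC_6h against 2.896 and 1.95 FPKM in VLC_3h, a log2(FPKM + 1) change of 5.86 (SE 0.296, adjusted p = 3.4e-09). The locus g9254 (scaffold00330, 309637 to 312758) had 56.3 and 117 FPKM in VLC_6h against 0.457 and 0.76 FPKM in VLC_3h, a change of 5.68 (SE 0.29, adjusted p = 3.8e-09). Both stayed below 1 FPKM in all libraries of HC_6h and HC_3h, and in both replicate 2 of VLC_6h held more than 2 times the level of replicate 1. Another such gene, g974, was listed at 0 in both VLC_3h libraries and had 17.97 and 29.3 FPKM in VLC_6h, but also 63.1 and 0 FPKM at 0 h, so no fold is given, and its call was lost when any of the 4 libraries was left out. The largest falls were of g8209, with 4.45 and 5.27 FPKM in VLC_6h against 149 and 117 FPKM in VLC_3h, and g4001, with 95.02 and 90.9 FPKM in VLC_6h against 2119 and 1947 FPKM in VLC_3h. They changed alike at HC (-4.17 and -4.16 on the log2(FPKM + 1) scale). They also alternated between times, with VLC means of 693 and 1686 FPKM at 12 h and 17.2 and 18.3 FPKM at 24 h. The locus g10113 had 5.24 and 1.48 FPKM in VLC_6h against 45.3 and 154 FPKM in VLC_3h, with replicates that differed more than 3-fold at either time.

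Genes called in the same direction lay beside each other on the scaffolds more often than the overall share of called genes. In 491 pairs of tested genes with consecutive identifiers on 1 scaffold the first gene was called higher, and in 94 of these (19.1%) so was the second, beside 7.86% of all tested genes. For genes called lower the count was 77 of 522 pairs (14.8%), beside 8.05%. The nitrate reductase and nitrate transporter pair and the dikinase pair are examples. No locus overlaps another in the deposited tables, and the libraries do not mark strand.

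Most of the change from 3 to 6 h was shared with the cells kept at high CO2. In HC_6h against HC_3h 566 genes were higher (6.93% of 8168 tested) and 616 lower (7.54%), 14.5% in all. Of the 647 genes higher in VLC 409 (63.2%) were also called higher at HC, which is 72.3% of the HC list, and of the 662 lower in VLC 442 (66.8%) were also lower at HC, 71.8% of the HC list. Of the rest, 1 gene was called in opposite directions, the carbonic anhydrase g6125. The change at HC had the same sign for 632 (97.7%) of the genes higher and 652 (98.5%) of the genes lower in VLC. Over the 8034 genes tested in both arms the log2(FPKM + 1) changes correlated with Pearson's r of 0.89 and Spearman's rho of 0.89. This is across genes, which are not independent replicates, and the 2 comparisons share no library. Lists moved alike as well. At HC 13 of 27 Calvin cycle genes, 9 of 15 fatty acid genes, 9 of 23 nitrogen genes and 16 of 56 ribosome biogenesis genes were lower, and 17 of 73 replication and repair genes were higher.

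**Figure D5:**
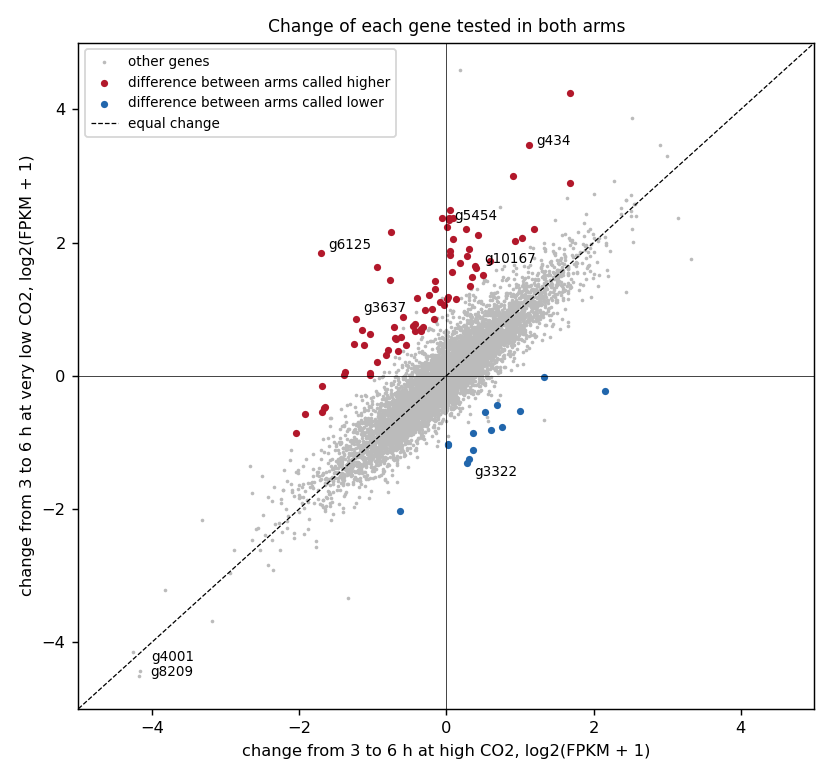
Change from 3 to 6 h of each of the 8034 genes tested in both arms, at very low CO2 (vertical axis) and at high CO2 (horizontal axis), on the log2(FPKM + 1) scale, with the line of equal change dashed. Most genes lie along the line, while red points (difference between arms called higher) and blue points (called lower) lie off it, among them g6125, g5454 and g434 above the line and g3322 below it.

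The difference between the 2 changes, VLC minus HC, was tested in the same limma fit for each gene. It passed for 114 of 8361 genes (1.36%), 93 higher (1.11%) and 21 lower (0.251%), and for 7577 (90.6%) its 95% interval lay within 2-fold. Of the 93, 57 were called higher in VLC, 16 were called lower at HC, with 1 gene in both counts, and 21 were called in neither arm. Also among the 93, 18 were under 10 FPKM in both HC groups. Those 18 entered the test only through their VLC levels, so their difference says little about a change at HC. Of the 21 with a negative difference, 11 were called lower in VLC and 5 higher at HC. These counts rest on libraries that stand apart. Replicates of HC_3h had a median absolute log2(FPKM + 1) difference of 0.231, against 0.057 in HC_6h, and replicate 2 of HC_3h was nearer to the VLC_3h libraries (r 0.98 and 0.98 over genes) than to its own replicate (0.97). Without it 170 genes were higher and 68 lower. Replicate 2 of VLC_6h lay farther from the HC_6h libraries (r 0.953) than replicate 1 (0.972), and it exceeded replicate 1 in 89 of the 93 genes, with a median ratio of 1.32 in FPKM + 1, beside 48.2% of all tested genes and a median ratio of 0.996. Without it 59 genes were higher and 19 lower. The part of either library in these counts was not tested.

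Genes that rose more in VLC than at HC included regulators and signalling proteins beside the carbon genes described above. For the myb-like factor g434 the difference was 2.35 (SE 0.18, adjusted p = 3.7e-06), although it rose at HC too, with 19.1 and 19.1 FPKM in HC_6h against 8.51 and 8.005 FPKM in HC_3h. The kinase g7153 and the ras-related protein g5904 differed by 2.504 and 2.76 on the log2(FPKM + 1) scale, and g8242 by 3.96. For these 3 genes the levels at HC were under 10 FPKM at both times, so the difference is close to the VLC change itself. On the other side, a ferredoxin (g4849), a small iron-sulfur electron carrier, had 28.5 and 34.1 FPKM in VLC_6h against 102 and 92.2 FPKM in VLC_3h, and 8.24 and 7.69 FPKM in HC_6h against 3.88 and 3.59 FPKM in HC_3h. Sulfide-quinone oxidoreductase (g3322), which passes electrons from sulfide to quinones, had 73.98 and 83.5 FPKM in VLC_6h against 204 and 188 FPKM in VLC_3h, and 62.2 and 66.4 FPKM in HC_6h against 42.1 and 66.4 FPKM in HC_3h. In both genes the VLC libraries stood above the HC libraries at 3 h and at 6 h. A glyoxylase-like gene (g9770) and the flavin-dependent oxidoreductase next to it (g9771, loci scaffold00341, 166902 to 169308 and scaffold00341, 169313 to 171387) differed by -1.54 and -2.06. The ferredoxin component g2456 had 3.54 and 4.15 FPKM in VLC_6h and 3.33 and 4.72 FPKM in VLC_3h, far below the 299 and 303 FPKM of HC_6h and 165 and 81.2 FPKM of HC_3h, and it rose at HC, which gave a difference of -1.41. That call was lost when any of 6 of the 8 libraries was left out, with differences from -1.503 to -0.91.

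The levels at other times place the step within the course. Of the 647 genes higher in VLC_6h than in VLC_3h, 38 (5.87%) had a 0 h mean on the VLC_6h side of the midpoint between both groups, on the log scale. At 12 h in VLC 464 (71.7%) and at 24 h 263 (40.6%) lay on that side. Of the 662 lower genes 46 (6.95%) were on the VLC_6h side at 0 h, 374 (56.5%) at 12 h and 260 (39.3%) at 24 h. By 24 h most genes of either set thus stood on the VLC_3h side. The median gene called higher had 8.72 FPKM at 0 h, 11.7 FPKM at 3 h, 34.2 FPKM at 6 h, 39.5 FPKM at 12 h and 15.4 FPKM at 24 h in VLC. The median gene called lower had 72.9 FPKM at 0 h, 59.1 FPKM at 3 h, 23.2 FPKM at 6 h, 42.8 FPKM at 12 h and 44.0 FPKM at 24 h. Histone H2A (g7083) ran with the risers, at 537 FPKM at 0 h and 3361 FPKM at 12 h but 305 FPKM at 24 h, while the nitrate transporter (g7989) stayed low, at 4964 FPKM at 0 h, 366 FPKM at 12 h and 489 FPKM at 24 h. The carbonic anhydrase g6125 followed neither course, with a mean of 327 FPKM at 0 h, 337 FPKM at 12 h and 2102 FPKM at 24 h in VLC.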

How the data were processed

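Poly(A) RNA of each library was sequenced as paired reads without strand information. The authors trimmed the reads, aligned them to the N. oceanica IMET1 genome with TopHat (TopHat2 2.0.4 in the submitters' processing notes), excluded multiply mapped reads and deposited FPKM values made with Cufflinks (2.0.2 in those notes), 1 column per library. Coordinates are those of the deposited gene tables, converted to count from 1. Aligned read totals per library that the study states were not used in the tests, and no counting error or detection limit is given.

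From the deposited FPKM, log2(FPKM + 1) was fitted with limma 3.58.1 in R 4.3.3, with 1 mean per group over all 18 libraries in 9 groups, a variance trend and Benjamini-Hochberg adjustment over genes with a mean of at least 10 FPKM in a group compared. On this scale changes of low genes are understated. A call needed an adjusted p of 0.05 or less and a change of at least 2-fold. The HC change and the difference between arms came from the same fit. The test script was checked on simulated data. Tables and figures were made with Python 3.11.15, pandas 2.3.3 and matplotlib 3.10.9.

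Gene lists came from gene identifiers in the paper (9 lists) or keywords in the deposited annotation (34 lists), and list medians are log2 ratios of group mean FPKM. Named genes were the 12 largest annotated rises and falls, the 3 largest of each without a named function, up to 3 called genes per list and direction (with none called, the extreme members), the genes of the paper's lists, and the 6 largest annotated differences between arms each way. Members and lists were chosen with earlier results of these data known. The pseudocount, FPKM minimum, scaling, libraries in the fit, variance trend, replicate block, size rule and each library in turn were varied.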

Additional observations from a re-analysis of the deposited data

Results flagged for a closer look

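The following genes changed differently from 3 to 6 h in the 2 arms by the limma interaction test described above. All values are differences of log2(FPKM + 1) changes, VLC minus HC. The test passed for 93 genes in the positive direction (18 of them under 10 FPKM in both HC groups) and 21 in the negative. Among carbon genes these were the carbonic anhydrase g6125 (3.56), the dikinases g5454 (2.24) and g5453 (1.69), glutamate:glyoxylate aminotransferase g3637 (2.08), glycolate oxidase g640 (1.73), phosphoglycolate phosphatase g10166 (1.67), the folate enzymes g8540 (1.58) and g5846 (1.43) and the NAR1-like transporter g6826 (1.21). The value of g6826 was 0.94, under 2-fold, without replicate 1 of HC_3h.

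Genes of other functions with a positive difference were the HSP70-type g8242 (3.96), the ras-related g5904 (2.76), the kinase g7153 (2.504), the myb-like factor g434 (2.35), the ABC protein g6042 (1.46), the diacylglycerol acyltransferase g10167 (1.25) and the glutathione S-transferase g9049 (1.14). The unannotated genes g4254 (6.27) and g9254 (5.52) had the largest positive values among the genes named here. Negative differences were found for the unannotated locus g10113 (-6.96, a value that depends on the pseudocount since both HC_3h libraries list it at 0), the ferredoxin g4849 (-2.53), the oxidoreductase g9771 (-2.06), g8207 (-2.02), the sulfide-quinone oxidoreductase g3322 (-1.58), the glyoxylase-like g9770 (-1.54) and the ferredoxin component g2456 (-1.41).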

How the results depend on the processing

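The counts for VLC_6h against VLC_3h moved with the size rule. A 1.5-fold rule gave 1472 higher and 1595 lower genes and no size rule 2474 and 2910, while the other alternatives gave 646 to 767 and 584 to 725, and leaving out 1 library gave 608 to 696 and 625 to 705. For HC_6h against HC_3h these were 1340 and 1548, 2414 and 2837, 558 to 716 and at most 685, and 546 to 655 and 574 to 762. The difference between arms was the most dependent on the processing. Only the libraries compared gave 51 higher and 13 lower genes, a 1.5-fold rule 177 and 67 and no size rule 208 and 93, and leaving out 1 library gave 59 to 170 and 17 to 68, with 17 lower genes without replicate 1 of VLC_3h or of HC_6h. The causes were not tested.

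A replicate block gave 648 higher and 663 lower genes in VLC, 566 to 568 and 616 to 618 at HC, and for the difference between arms 45 and 13 over the libraries compared or 97 and 24 with the block within each arm. Replicate numbers share no stated culture, and same-numbered deviations correlated by 0.16 in VLC and -0.02 at HC. Of 226 named genes 164 were called. Over 9 alternatives 17 lost and 3 gained a call, and no called gene changed sign. Of 43 list medians 10 changed sign, 3 of them at least 0.1 in size, and a change of scaling moved a median by up to 0.568.

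With 2 libraries per group and a spread pooled over groups, precision rests on groups that are assumed to vary alike. Leaving out a library assumes that the lone library varies like the others. Changes near 2-fold can pass or miss the rule by small shifts. No detection limit was computed for genes listed at 0.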

Other observations

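Some genes alternated between sampling times in both arms, a pattern chosen after their values were seen and reported with no test. The study's aligned read totals divide the libraries at the same times, with more reads at 6 and 24 h. In 15 genes every group at 0, 3 and 12 h stood at least 2 times above every group at 6 and 24 h. Of these 14 were called in VLC_6h against VLC_3h, beside 15.9% of all tested genes. The selection itself asks for a 2-fold gap between VLC_3h and VLC_6h, so these calls were nearly fixed in advance. The 15 genes include both V-type ATPase loci (g335 and g2482) and the 2 largest falls (g8209 and g4001). Their loci were short, with a median of 539 bases beside 2139 bases over all tested genes, and 11 had no annotation hit. In 22 further genes the order was the reverse, with 20 lacking an annotation hit and a median locus of 980.5 bases. All 22 were called in VLC, which the selection again nearly fixed in advance.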
